A study of Mus musculus with 6 samples.

Results

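The IL-1 family genes described here are the cytokine genes Il1a, Il1b, Il18, Il33 and Il36g, the antagonist gene Il1rn and the receptor genes Il1r1, Il1r2, Il1rap and Il1rl1. They were chosen by gene symbol and are 10 of the 21899 genes in the deposited table, each with 1 row. Their RNA was measured by RNA sequencing of mouse colon in 6 libraries, 3 from ADAMTS4 knockout mice (KO) and 3 from wild-type mice (WT). Every animal, wild type included, had received 2.5% dextran sodium sulfate (DSS), a polysaccharide that injures the colonic epithelium and causes colitis, for 7 days. ADAMTS4 is a secreted protease that cleaves large proteoglycans. The comparison asks how colon RNA differs between the genotypes under DSS. Which knockout allele was used is not given, nor are strain, sex, age or litter, so genetic background and loss of the protease cannot be told apart. Mice without DSS were not analysed here.

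IL-1 alpha and IL-1 beta bind the receptor IL-1R1, which then recruits the shared co-receptor IL-1RAP and signals through MyD88 and IRAK kinases to NF-kappaB and MAP kinases. The receptor antagonist encoded by Il1rn occupies IL-1R1 without signalling, and the decoy receptor IL-1R2 binds ligand without signalling. IL-33 acts through ST2, the product of Il1rl1, together with the same co-receptor. The receptors that bind IL-18 and IL-36 gamma are products of other genes. In the colon, IL-1 beta comes largely from myeloid cells and needs proteolytic processing, typically by caspase-1, whereas IL-18 is made constitutively by the epithelium, and IL-1 alpha and IL-33 are released by damaged cells.

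Promoter sequences are shown for the agonist genes Il1a and Il1b, the cytokine genes of the family with the lowest fold changes among those tested. Sequences are also shown for the 2 annotated starts of Il1rl1, because annotated transcripts of the receptor begin at or near each. Each window is the 250 bases before a RefSeq gene start on GRCm38.p6, 5′ to 3′ on the gene's strand, in lower case. Capitals mark a TATA box (TATAAA), an AP-1 motif (TGANTCA) or a C/EBP motif (TTGCNNAA), searched on both strands. The windows lie at chr2:129309973-129310222, minus strand, for Il1a, at chr2:129371140-129371389, minus strand, for Il1b, and at chr1:40429320-40429569 and chr1:40439379-40439628, plus strand, for the upstream and downstream starts of Il1rl1.
Il1a: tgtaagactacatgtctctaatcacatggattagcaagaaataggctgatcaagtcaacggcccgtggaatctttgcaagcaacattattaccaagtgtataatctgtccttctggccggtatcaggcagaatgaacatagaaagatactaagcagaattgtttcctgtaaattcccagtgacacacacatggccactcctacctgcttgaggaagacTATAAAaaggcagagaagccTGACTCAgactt
Il1b: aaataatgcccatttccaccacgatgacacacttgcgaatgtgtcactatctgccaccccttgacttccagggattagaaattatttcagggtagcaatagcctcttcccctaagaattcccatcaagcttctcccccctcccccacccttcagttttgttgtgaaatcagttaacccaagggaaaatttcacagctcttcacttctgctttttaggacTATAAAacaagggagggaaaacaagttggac
Il1rl1 upstream start: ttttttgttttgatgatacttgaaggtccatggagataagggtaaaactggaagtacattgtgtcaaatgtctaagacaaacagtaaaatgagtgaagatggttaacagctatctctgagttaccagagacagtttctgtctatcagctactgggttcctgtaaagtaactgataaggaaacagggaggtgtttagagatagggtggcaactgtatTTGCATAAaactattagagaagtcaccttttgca
Il1rl1 downstream start: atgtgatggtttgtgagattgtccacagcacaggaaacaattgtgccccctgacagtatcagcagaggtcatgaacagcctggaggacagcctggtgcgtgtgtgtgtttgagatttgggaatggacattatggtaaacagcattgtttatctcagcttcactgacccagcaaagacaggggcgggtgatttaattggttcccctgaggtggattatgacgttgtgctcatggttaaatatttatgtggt

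Counting the base before the start as -1, TATAAA began at -32 in Il1a and at -31 in Il1b, and the AP-1 motif TGACTCA began at -12 in Il1a. The upstream Il1rl1 window held a C/EBP motif at -34, and the downstream window held none of the motifs searched. RefSeq windows were matched for 9 of the 10 genes (14 windows), with no entry used for Il36g. TATAAA was present in 5 of the 14 windows, against 12.4% of all 32817 windows of the same length. These were the windows of Il1a, Il1b, Il18 and both starts of Il33. The Il18 match lay on the opposite strand at -175, and the Il33 matches began at -203 and -29. The AP-1 motif was present in 2 windows (Il1a and Il1rn, against 6.75%), the C/EBP motif in 3 (Il1r1, Il1rl1 and Il33, against 9.57%), and an NF-kappaB motif (GGG and CC with 5 bases between) in 4 (Il1r1, Il1rap and Il1rn, against 45.8%). These matches describe the letters of the windows and are not evidence of factor binding.

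Total counts were 20348172, 15786214 and 19081623 in the KO libraries and 22932125, 19093788 and 17895970 in the WT libraries. Adamts4 had 0 counts in every KO library and 900, 992 and 997 counts in the WT libraries, at least 289-fold lower in KO against a floor of 3 counts per library (edgeR adjusted p = 0.00213). On the first principal component (44.2% of the variance) KO 3 lay farthest out, with a score of 58.3 against -40.7 to 19.97 in the other libraries. The share of counts from mitochondrially encoded genes was 9.50% in KO 3, 7.66% in KO 2 and 4.03% in KO 1, against 4.29% to 6.05% among WT libraries. Summed over lists of marker genes, neutrophil markers stood at 114 to 189 TPM (a level per transcript length, on a fixed total) in KO and 403 to 1089 TPM in WT, and all 11 tested of 12 had log2 fold changes below 0. Monocyte and macrophage markers stood at 261 to 788 TPM in KO and 714 to 1203 TPM in WT, with 12 of 12 below 0. Fibroblast markers stood at 286 to 1520 TPM in KO and 989 to 1905 TPM in WT, lowest in KO 3, with 8 of 8 below 0. Endothelial markers stood at 34.1 to 101 TPM in KO and 126 to 142 TPM in WT (6 of 6 below 0), and erythroid genes at 245 to 611 TPM in KO and 1105 to 4886 TPM in WT (6 of 6). Smooth muscle markers were at 3326 to 4122 TPM in KO and 1856 to 2940 TPM in WT, with 0 of 6 below 0. Colon epithelial markers, which check the labelled tissue, were abundant in every library. They stood at 17660 to 27940 TPM in KO and 15510 to 22130 TPM in WT, with 2 of 10 below 0. Over all genes tested, 45.8% had log2 fold changes below 0. In edgeR 0 genes of each of these lists were called (background 0.151% lower and 0.00687% higher). DESeq2 called 6 neutrophil, 0 monocyte and macrophage, 1 fibroblast, 1 endothelial and 2 erythroid genes lower (background 2.83%). It called 3 smooth muscle genes higher (background 0.705%) and 0 epithelial ones in either direction. In bulk colon, fewer cells of a type and less RNA per cell cannot be told apart, and the part of these markers in the results that follow was not tested.

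Of the 10 genes, 8 had every KO library below every WT library, and Il1rap and Il18 did not. Among the 9 that passed the filter on low counts, 8 had log2 fold changes below 0, and their median was -1.47, against 0.03 over all 14553 genes tested. The quasi-likelihood test of edgeR called 0 of the 9 at an adjusted p below 0.05, where 0.151% of all genes tested were called lower and 0.00687% higher. At an unadjusted p below 0.05, 7 of the 9 were lower in KO, against a background of 7.85%, and 0 were higher, against 5.17%. DESeq2 called 7 lower in KO, against a background of 2.83%, namely Il1a, Il1b, Il1rn, Il1r1, Il1r2, Il1rl1 and Il33, and 0 higher (background 0.705%). The same 7 genes had edgeR log2 fold changes below -1, as did 4.82% of all genes tested. limma-voom called 0 (background 0.186%). The authors' deposited table lists 6 at a false discovery rate below 0.05, all of these but Il1rl1 (background 2.39%). Among tested genes, 10.2% had KO entirely below WT, as 7 of the 9 did, and 9.35% had KO entirely above WT, as none of the 9 did. An exact permutation p of 0.1 is the smallest that 3 against 3 allows. Of the 10 genes, 9 had their lowest KO level in KO 3, the library with the highest mitochondrial share (9.50%). The part of that library in these levels was not tested. The highest WT level was in WT 1 for 6 of the 10 genes and in WT 3 for 4. Shares over all genes tested were not computed for these orders of libraries.

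**Figure D1:**
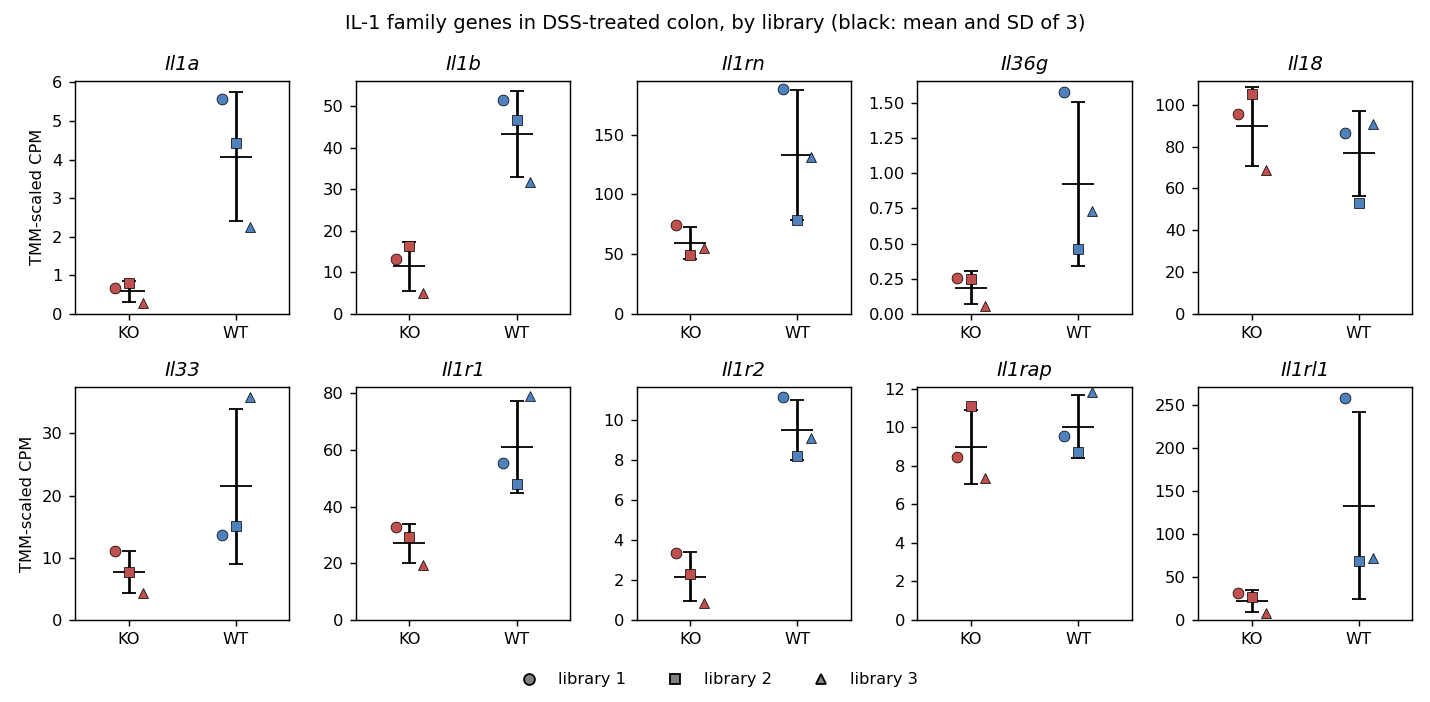
Level of each IL-1 family gene in CPM (counts scaled to a fixed library total with TMM factors) in KO libraries (red) and WT libraries (blue), with marker shape giving the library number and black lines the mean and SD of 3 libraries. For Il1b the KO libraries lie between 4.88 and 16.2 CPM and the WT libraries between 31.7 and 51.5 CPM, while for Il18 and Il1rap the groups overlap.

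The genes of both IL-1 agonists were several-fold lower in KO colon. Il1b (chromosome 2, 129364570 to 129371139 on GRCm38, minus strand) had 13.2, 16.2 and 4.88 CPM in KO 1, KO 2 and KO 3, against 51.5, 46.6 and 31.7 CPM in WT 1, WT 2 and WT 3. Il1a, its neighbour (129299610 to 129309972), had 0.668, 0.805 and 0.268 CPM in KO, against 5.56, 4.43 and 2.25 CPM in WT. The groups did not overlap for either gene, and KO 3 was the lowest library for both. Il1b averaged 11.4 ± 5.88 CPM in KO and 43.3 ± 10.3 CPM in WT (SD, n = 3 each), a log2 fold change of -1.92 ± 0.41 (SE, 95% interval -2.86 to -0.98). It did not pass in edgeR (adjusted p = 0.116) and passed in DESeq2 (adjusted p = 9.5e-05). Il1a averaged 0.581 ± 0.279 CPM in KO and 4.08 ± 1.69 CPM in WT, a log2 fold change of -2.81 ± 0.51 (95% interval -3.98 to -1.64, edgeR adjusted p = 0.0821, DESeq2 adjusted p = 6.2e-05). At an adjusted p below 0.1 in edgeR, Il1a was the only one of the 9 called, against 0.783% of all genes called lower. The Il1a values rest on 13, 13 and 5 counts in KO and 130, 87 and 40 counts in WT. DESeq2 called both genes whichever 1 library was left out, with log2 fold changes of -2.26 to -1.55 for Il1b and -3.12 to -2.47 for Il1a. Exons of Il1a and Il1b overlap annotated noncoding RNAs on the opposite strand (Gm14023 and Il1bos), and whether reads were counted by strand is not given. Neutrophil marker sums were 189, 148 and 114 TPM in KO, against 1089, 403 and 499 TPM in WT, in the order of library number. They were highest in WT 1, as both genes were, but WT 3 exceeded WT 2 and KO 1 exceeded KO 2, the reverse of both genes. The order of WT 2 and WT 3 differed between markers, and Ly6g (101 and 245 TPM) weighed heavily in the sums. S100a8 (74.2 and 54.5 TPM), S100a9 (113 and 104 TPM), Mmp8, Ngp and Retnlg were higher in WT 2, as both genes were. The other neutrophil markers were higher in WT 3. The part of neutrophils in the levels of Il1a and Il1b was not tested.

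Il1rn, which encodes the antagonist of both agonists, was also lower in KO. It had 74.2, 48.9 and 55.01 CPM in KO and 188, 78.8 and 132 CPM in WT, so that WT 2 lay only just above KO 1. The means were 59.4 ± 13.2 CPM in KO and 133 ± 54.5 CPM in WT, a log2 fold change of -1.16 ± 0.31 (95% interval -1.87 to -0.46, edgeR adjusted p = 0.188, DESeq2 adjusted p = 0.00822). The DESeq2 call held without KO 1 and without WT 2 and was lost without KO 2, KO 3, WT 1 or WT 3 (adjusted p 0.0537 to 0.202). The antagonist RNA nevertheless exceeded agonist RNA in every library on the TPM scale. The ratio of Il1rn to Il1b TPM was 5.01, 3.48 and 11.1 in KO and 3.45, 1.96 and 4.55 in WT, and the groups overlapped. The ratio of Il1rn to Il1a TPM was 144, 102 and 293 in KO and 46.5, 29.9 and 93.3 in WT, and the groups did not overlap. These ratios are descriptions with no test, and they rest on few Il1a counts in KO. The TPM of Il1rn also depends on a mean transcript length that varied between libraries, from 1173 to 1523 bases.

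Il36g, named Il1f9 in the transcript annotation, encodes IL-36 gamma, an epithelial cytokine that acts through the product of Il1rl2. It was close to the detection limit, with 5, 4 and 1 counts in KO and 37, 9 and 13 counts in WT, and it did not pass the filter for edgeR. Summed over libraries there were 10 counts in KO and 59 in WT. The WT to KO ratio of these sums, scaled by depth, was 5.26 (95% exact interval 2.67 to 11.5, counting error only), and 37 of the 59 WT counts came from WT 1. DESeq2, which tested it, gave an adjusted p of 0.188. Il36g, Il1a and Il1rn are also transcribed in squamous epithelium such as that of the anal canal. Squamous markers summed to 2.91 to 3.77 TPM in KO and 3.11 to 5.09 TPM in WT, with Ivl and Sprr1b at 0 in every library and 8 of the 12 markers under 10 counts in every library. The squamous sum was highest in WT 1 (5.09 TPM), where Il36g, Il1a and Il1rn were highest too, and Krt13 had 53 counts there, against 5 or 6 in each other library. The part of squamous RNA in these results was not tested.

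Il33, the alarmin gene, was lower in KO, and Il18, the constitutive epithelial cytokine gene, overlapped between genotypes. Il33 (chromosome 19, 29925114 to 29960718) had 11.2, 7.68 and 4.35 CPM in KO and 13.6, 15.0 and 35.9 CPM in WT. The groups did not overlap, but KO 1 and WT 1 were close and WT 3 was far above the other WT libraries. Il33 averaged 7.73 ± 3.40 CPM in KO and 21.5 ± 12.5 CPM in WT, a log2 fold change of -1.47 ± 0.46 (95% interval -2.52 to -0.42, edgeR adjusted p = 0.247, DESeq2 adjusted p = 0.0232). Without WT 3 the log2 fold change was -0.89. The DESeq2 call held without KO 1 and without WT 1 and was lost in the other fits that left out a library (adjusted p 0.0546 to 0.418). Fibroblast marker sums were 1520, 1034 and 286 TPM in KO, against 1470, 989 and 1905 TPM in WT, in the same order of libraries. They were highest in WT 3, as Il33 was, while KO 1 exceeded WT 1 and WT 2 in these sums and was lower in Il33. Markers differed in this order. Col1a1, Col1a2, Col3a1 and Lum were higher in KO 1 than in WT 1 and WT 2. Dcn (204 TPM), Pdgfra (31.0 TPM), Pdpn (21.8 TPM) and Thy1 (18.7 TPM) were lower in KO 1 than in both. The part of fibroblasts in the Il33 levels was not tested. Il18 (chromosome 9, 50554827 to 50581840) had 95.6, 105 and 68.6 CPM in KO and 86.5, 53.2 and 90.7 CPM in WT, so the groups overlapped. Its means were 89.8 ± 18.9 CPM in KO and 76.8 ± 20.5 CPM in WT, and its log2 fold change was 0.23 ± 0.24 (95% interval -0.32 to 0.77, edgeR adjusted p = 0.731). The interval leaves room for a lower level of up to 0.32 log2 units or a higher one of up to 0.77.

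**Figure D2:**
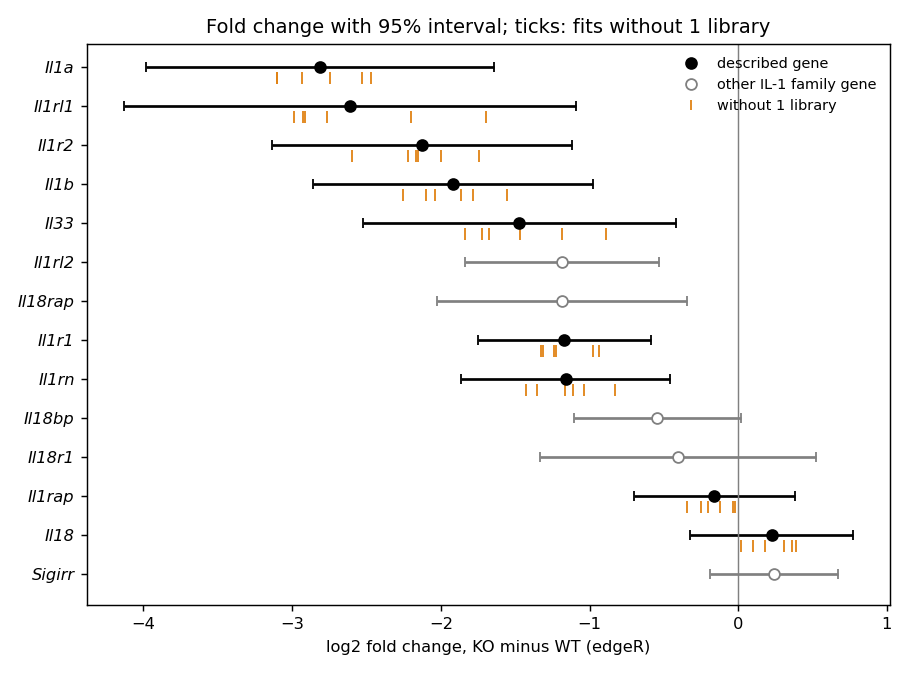
Log2 fold change, KO minus WT, of the IL-1 family genes and the related genes listed with them, with the 95% interval of the edgeR fit as the bar and orange ticks for the fits that left out 1 library. The interval of Il1a runs from -3.98 to -1.64, whereas those of Il18 and Il1rap span 0.

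Among receptor genes, the signalling receptor, the decoy and ST2 were lower in KO, and the levels of the shared co-receptor overlapped. Il1r1, which encodes the signalling receptor, had 32.6, 29.2 and 19.4 CPM in KO and 55.5, 48.1 and 79.2 CPM in WT. The groups did not overlap. The fibroblast marker sum of KO 1 (1520 TPM) was within the WT range of 989 to 1905 TPM, and those of KO 2 (1034 TPM) and KO 3 (286 TPM) were within and below it. These sums were mostly collagen RNA, with Col3a1 alone at 691 TPM in KO 1. In 3 of the 8 markers (Dcn, Pdgfra and Pdpn) KO lay entirely below WT in CPM, against 10.2% of all genes tested. In the other fibroblast markers the groups overlapped in CPM. On the TPM scale Thy1 did not overlap (18.7 to 24.6 TPM in KO and 25.5 to 30.2 TPM in WT). The part of fibroblasts in the Il1r1 levels was not tested. Il1r1 averaged 27.1 ± 6.85 CPM in KO and 60.9 ± 16.2 CPM in WT, a log2 fold change of -1.17 ± 0.25 (95% interval -1.75 to -0.59, edgeR adjusted p = 0.119, DESeq2 adjusted p = 0.00163). DESeq2 called it in 5 of the 6 fits that left out a library, the exception being the fit without WT 3 (adjusted p = 0.0529). Il1r2, which encodes the decoy receptor and is strongly transcribed in neutrophils, had 3.34, 2.29 and 0.859 CPM in KO and 11.1, 8.20 and 9.09 CPM in WT. The WT libraries lay close together and well above all KO libraries. The log2 fold change of Il1r2 was -2.13 ± 0.44 (95% interval -3.14 to -1.12, edgeR adjusted p = 0.114, DESeq2 adjusted p = 0.000116), and DESeq2 called it in all 6 fits that left out a library. On the TPM scale the decoy stood at 0.352, 0.284 and 0.163 of the level of Il1r1 in KO, against 0.686, 0.582 and 0.395 in WT. These ratios did not overlap between groups. Il1rap, the co-receptor, had 8.48, 11.1 and 7.35 CPM in KO and 9.54, 8.71 and 11.8 CPM in WT. Its groups overlapped, and its log2 fold change was -0.16 ± 0.23 (95% interval -0.70 to 0.38, edgeR adjusted p = 0.813). Exons of Il1rap, too, overlap an annotated antisense RNA on the opposite strand (Gm20319).

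Il1rl1, which encodes the IL-33 receptor ST2, had the widest spread of these genes among WT libraries. It had 31.5, 26.2 and 7.51 CPM in KO and 258, 68.5 and 71.6 CPM in WT. WT 1 was several-fold above the other WT libraries, and all WT libraries were above all KO libraries. The means were 21.7 ± 12.6 CPM in KO and 133 ± 109 CPM in WT, a log2 fold change of -2.61 ± 0.66 (95% interval -4.13 to -1.09, edgeR adjusted p = 0.170). Without WT 1 the log2 fold change was -1.70. DESeq2 gave an adjusted p of 0.0495, and its call was lost without KO 2, KO 3, WT 2 or WT 3 (adjusted p 0.0839 to 0.144). The authors' deposited table lists a false discovery rate of 0.0572 for Il1rl1. Mast cells, regulatory T cells and group 2 innate lymphoid cells are among the cells known to carry ST2. Mast cell markers summed to 28.7 to 50.5 TPM in KO and 43.7 to 194 TPM in WT, with 5 of the 5 tested below 0, with the highest sum in WT 2. Kit, which other cells of the gut wall also express, made up 21.9 to 33.0 TPM of these sums in KO and 21.96 to 38.1 TPM in WT. T and innate lymphoid cell markers summed to 23.4 to 41.1 TPM in KO and 23.8 to 46.8 TPM in WT, with 6 of 7 below 0. No marker of either list was at 0 throughout a group. The part of these or any other cells in the Il1rl1 levels was not tested. The ratio of Il33 to Il1rl1 TPM was 0.399, 0.328 and 0.636 in KO and 0.0575, 0.225 and 0.552 in WT, and the groups overlapped.

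Il1rl1 makes a membrane receptor and a shorter soluble form that binds IL-33 without signalling. In the GENCODE M21 annotation of GRCm38 the transcripts for 567 residues are 5053 and 5302 bases long, and those for 337 residues are 1216 and 2661 bases long. A further transcript of 375 bases has an incomplete reading frame. The mean transcript length behind the deposited values was computed from the ratio of count to TPM, scaled on genes with a single annotated transcript. For Il1rl1 it was 2557, 2784 and 2789 bases in KO and 2773, 2605 and 2795 bases in WT. All 6 values lay near the 2661 bases of the longer transcript for 337 residues, and the groups overlapped. Such a mean allows the membrane forms a share of at most 46.7%, 51.5% and 51.6% of Il1rl1 molecules in KO and 51.3%, 47.7% and 51.7% in WT, reached only if every other molecule were of 375 bases. The limit assumes M21 transcript lengths, and the annotation release behind the deposited values is not given. Genes with a single M21 transcript and at least 200 counts set the scale. Of these, 97.4% (KO 2) to 98.2% (WT 1) came within 1% of the annotated length. Mixtures of short and long transcripts below that limit cannot be told apart from these values, and the estimate was chosen after the data were seen.

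**Figure D3:**
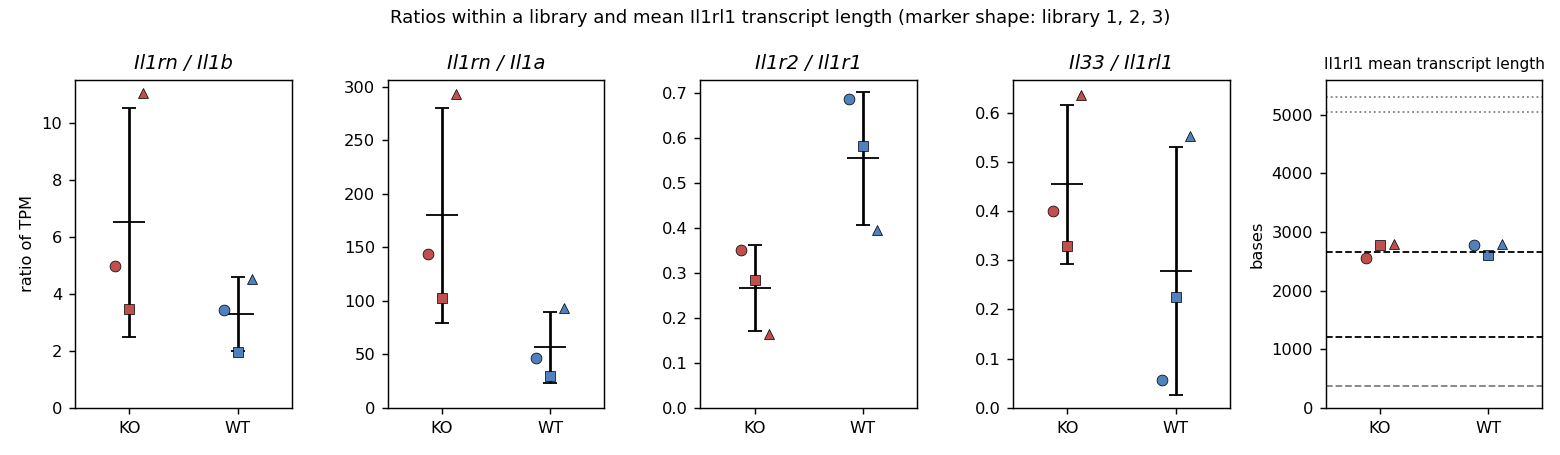
Ratios of TPM between IL-1 family genes within each library, and the mean Il1rl1 transcript length in bases behind the deposited values, in KO (red) and WT (blue), with the mean and SD of 3 libraries for the ratios. In the length panel, dashed black lines mark the transcripts for 337 residues, dotted lines those for 567 residues and the dashed grey line the transcript of 375 bases. The ratio of Il1r2 to Il1r1 is 0.163 to 0.352 in KO and 0.395 to 0.686 in WT, and all lengths lie between 2557 and 2795 bases.

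Ordered by mean level per length, Il18 came first in KO and Il1rn in WT. In KO, Il18 was highest at 186 ± 52.4 TPM, followed by Il1rn at 77.2 ± 11.1 TPM, and the ranges of these genes did not overlap. Il1b (15.4 ± 8.68 TPM), Il1rl1 (14.8 ± 9.21 TPM), Il1r1 (10 ± 3.01 TPM), Il33 (5.82 ± 2.99 TPM), Il1rap (3.87 ± 1.19 TPM) and Il1r2 (2.85 ± 1.61 TPM) came next, each overlapping its neighbour in this order and separate from Il1rn above and Il1a below. Il1a (0.535 ± 0.285 TPM) and Il36g (0.206 ± 0.133 TPM) were lowest and overlapped each other. In WT, Il1rn (186 ± 57.0 TPM) and Il18 (163 ± 41.3 TPM) were highest and overlapped, followed by Il1rl1 (88.8 ± 70.9 TPM), Il1b (58.8 ± 14.5 TPM), Il1r1 (22.99 ± 5.68 TPM), Il33 (15.5 ± 8.79 TPM), Il1r2 (12.3 ± 1.84 TPM), Il1rap (4.25 ± 0.684 TPM), Il1a (3.81 ± 1.59 TPM) and Il36g (1.03 ± 0.648 TPM). In WT the ranges of neighbours were separate only between Il1b and Il1r1, between Il1r2 and Il1rap, and between Il1a and Il36g. Il18 took 55.9%, 61.2% and 59.3% of the summed TPM of the 10 genes in KO, against 25.5%, 28.5% and 34.8% in WT. This share is of a sum in which most of the other genes were lower in KO, while the Il18 levels themselves overlapped.

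Il1r2, Il1r1 and Il1rl1 lie in a cluster on chromosome 1 with Il1rl2, Il18r1 and Il18rap, 130.7 to 131.1 Mb from Adamts4, from Il1r2 at 40074079 to Il18rap ending at 40551705. All 6 genes had negative log2 fold changes, with Il18r1 closest to 0. Il1rl2, the IL-36 receptor gene, averaged 3.72 ± 1.10 CPM in KO and 8.46 ± 0.934 CPM in WT (log2 fold change -1.19 ± 0.28, edgeR adjusted p = 0.154, DESeq2 adjusted p = 0.0107). Il18rap, a subunit of the IL-18 receptor, averaged 1.496 ± 0.542 CPM in KO and 3.395 ± 0.653 CPM in WT (-1.19 ± 0.37, edgeR adjusted p = 0.243). Il18r1, the ligand-binding subunit, had -0.41 (edgeR adjusted p = 0.714).

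**Figure D4:**
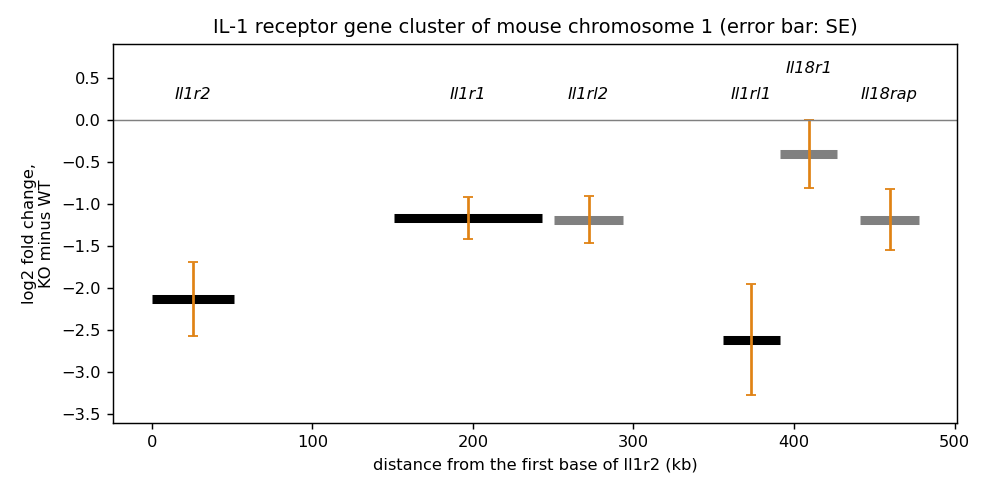
Log2 fold change, KO minus WT, of the genes of the IL-1 receptor cluster against their distance in kb from the first base of Il1r2, with black bars for Il1r1, Il1r2 and Il1rl1, grey bars for the neighbouring receptor genes and orange lines for the SE. Il1rl1 is at -2.61 and its neighbour Il18r1 at -0.41.

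The remaining IL-1 family list held 11 ligand, receptor and binding protein genes, of which 5 passed the filter. In edgeR 0 of the 5 were called in either direction (background 0.151% lower and 0.00687% higher). In DESeq2 1 was lower (Il1rl2, background 2.83%), or 0 without WT 2 or WT 3. The median log2 fold change was -0.54, against 0.03 for all genes. Il18bp, which encodes a secreted IL-18 binding protein, averaged 23.8 ± 1.78 CPM in KO and 34.7 ± 11.04 CPM in WT (-0.54 ± 0.24, edgeR adjusted p = 0.394), and its exons overlap Numa1 on the opposite strand. Sigirr, a negative regulator of IL-1 and Toll-like receptor signalling, averaged 30.6 ± 4.51 CPM in KO and 25.9 ± 3.88 CPM in WT (0.24 ± 0.19, edgeR adjusted p = 0.628). Il36a, Il36rn and Il1rapl2 had 0 counts in all 6 libraries, and Il1f10, Il36b and Il1rapl1 stayed under the filter.

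Among genes that process the cytokines, the shares at an unadjusted p below 0.05 were near the background. Of 21 inflammasome and protease genes 18 were tested, with a median log2 fold change of 0.15. In edgeR 0 were called (background 0.151% lower and 0.00687% higher). At an unadjusted p below 0.05 there were 2 lower (background 7.85%) and 1 higher (background 5.17%). DESeq2 called 1 lower (background 2.83%) and 1 higher (background 0.705%). The lower one was Nlrp3, the inflammasome sensor that activates caspase-1, at 1.67 ± 0.212 CPM in KO and 5.07 ± 0.717 CPM in WT (-1.60 ± 0.28, edgeR adjusted p = 0.0723, DESeq2 adjusted p = 0.00054). The higher one was Gsdmc2, an epithelial gasdermin gene, at 203 ± 13.8 CPM in KO and 126 ± 22.5 CPM in WT (0.69 ± 0.17, edgeR adjusted p = 0.162, DESeq2 adjusted p = 0.0170). With 1 library left out, DESeq2 called 0 genes of this list higher without KO 2, WT 1 or WT 2, 1 without KO 3 or WT 3 and 2 without KO 1. Gsdmc2 has near-identical paralogs, so its counts could be shared with them. Casp1, which encodes the protease that matures IL-1 beta and IL-18, averaged 125 ± 29.4 CPM in KO and 93.1 ± 5.70 CPM in WT (0.43 ± 0.19, edgeR adjusted p = 0.386). Gsdmd, whose product forms the pore for IL-1 beta release, averaged 117 ± 15.3 CPM in KO and 161 ± 15.95 CPM in WT (-0.46 ± 0.16, edgeR adjusted p = 0.281).

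Among signalling genes downstream of the receptors the share called was near the background. All 25 were tested, and 0 were called in edgeR (background 0.151% lower and 0.00687% higher). In DESeq2 1 was lower (background 2.83%), and the median log2 fold change was -0.12. The DESeq2 call was Nfkbia, the NF-kappaB inhibitor and itself an NF-kappaB target, at 50.8 ± 9.30 CPM in KO and 81.4 ± 8.999 CPM in WT (-0.68 ± 0.17, edgeR adjusted p = 0.171, DESeq2 adjusted p = 0.0308). With 1 library left out, DESeq2 called 0 of the 25 lower without KO 2, WT 1 or WT 2, 1 without KO 3 or WT 3 and 3 without KO 1. Irak3, an inhibitory IRAK family member, averaged 8.999 ± 3.08 CPM in KO and 13.6 ± 1.47 CPM in WT (-0.59 ± 0.27, edgeR adjusted p = 0.398). Tnfaip3, which encodes the feedback inhibitor A20, had -0.48 ± 0.24 (edgeR adjusted p = 0.442). Tollip, an adaptor that binds IRAK proteins, had -0.21 ± 0.12 (edgeR adjusted p = 0.517).

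Genes that IL-1 is known to induce were lower in KO. All 23 tested of 24 had log2 fold changes below 0, against 45.8% of all genes, and their median was -2.16. In 20 of the 23, KO lay entirely below WT, against 10.2% of all genes tested. In edgeR 3 fell (background 0.151%) and 0 rose, and DESeq2 called 20 lower (background 2.83%). Neutrophil markers and erythroid genes had medians of -2.24 and -2.31. Cxcl1, which encodes a ligand of the neutrophil receptor CXCR2, had 3.13, 2.42 and 1.13 CPM in KO and 23.2, 38.5 and 18.8 CPM in WT (-3.59 ± 0.42, edgeR adjusted p = 0.0434). Cxcl2, another CXCR2 ligand gene, had 1.59, 0.929 and 0.805 CPM in KO and 23.9, 12.6 and 7.97 CPM in WT (-3.73 ± 0.48, edgeR adjusted p = 0.0495). Mmp3, a stromal matrix protease gene, had 26.1, 16.4 and 13.3 CPM in KO and 71.4, 94.6 and 83.7 CPM in WT (-2.16 ± 0.26, edgeR adjusted p = 0.0434). All KO libraries lay below all WT libraries for each. Il11, a stromal cytokine gene, had -2.96 ± 0.44 and did not pass (edgeR adjusted p = 0.0595). With a library left out, edgeR called 3 without KO 1, 1 without KO 3 or WT 3, and 0 without KO 2, WT 1 or WT 2, and DESeq2 called 12 (without WT 2) to 20, with 13 without KO 2. Many of these genes are also known to respond to TNF and microbial products, and neutrophil marker sums were lower in the same libraries (114 to 189 TPM in KO, against 403 to 1089 TPM in WT). The list was chosen with earlier results of these data known.

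The list of IL-33 response and ST2 cell genes held 12 tested of 15, with a median log2 fold change of -0.65. In edgeR 0 were called (background 0.151% lower and 0.00687% higher), and DESeq2 called 1 lower (background 2.83%). That call was Chil3, a macrophage and neutrophil gene induced by type 2 cytokines in macrophages, at 2.54 ± 2.04 CPM in KO and 41.9 ± 24.3 CPM in WT (-4.03 ± 0.62, edgeR adjusted p = 0.0595, DESeq2 adjusted p = 8.1e-13). Ctla4, an inhibitory receptor of regulatory T cells, averaged 1.21 ± 0.225 CPM in KO and 2.87 ± 0.268 CPM in WT (-1.24 ± 0.31, edgeR adjusted p = 0.167). Foxp3, the regulatory T cell transcription factor, averaged 0.988 ± 0.179 CPM in KO and 2.25 ± 1.07 CPM in WT (-1.18 ± 0.44, edgeR adjusted p = 0.323). Il17rb, the IL-25 receptor gene, had -1.04 ± 0.51 (edgeR adjusted p = 0.425). Il4, Il5 and Il13, the type 2 cytokine genes, stayed under the filter on low counts and were not tested.

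**Figure D5:**
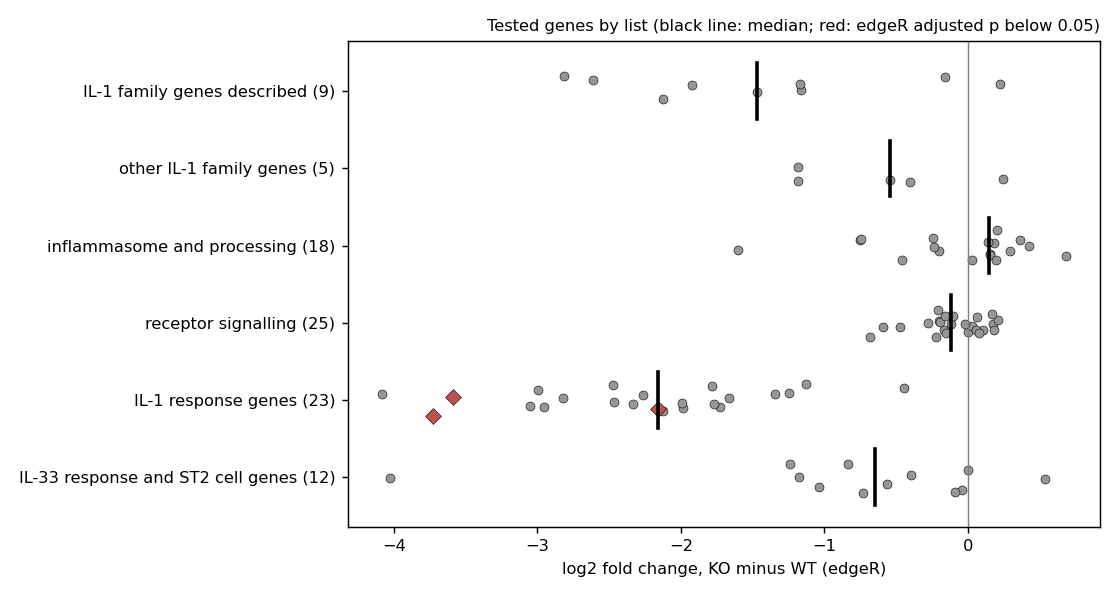
Log2 fold change, KO minus WT, of each tested gene by list, with the number tested in parentheses, the median as a black line and genes with an edgeR adjusted p below 0.05 as red diamonds. The median is -1.47 for the IL-1 family genes described, -2.16 for IL-1 response genes, -0.12 for receptor signalling and 0.15 for inflammasome and processing genes.

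Over the 6 libraries, the genes whose log2(CPM + 1) was most closely correlated with that of Il1b, among 13468 genes, were Mturn (r = 0.996), Gsap (0.990), Plcl1 (0.986), Lilrb4b (0.986) and Zhx3 (0.985). For Il33 they were Arid5b (0.995), Adamts15 (0.994), Lvrn (0.989), Havcr2 (0.987) and Runx1 (0.983). Between the IL-1 family genes themselves, r was 0.961 for Il1b and Il1r2 and 0.962 for Il1r1 and Il33, while Il18 had values from -0.324 to 0.563 with the others. These values share libraries, depth and the difference between genotypes, rest on 6 points and are given as a description.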

How the data were processed

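Colon RNA of 3 KO and 3 WT libraries was isolated by Trizol, and libraries were made with a SMARTER kit for mRNA, per the labels' protocols. GRCm38, mm10 and mm39 are listed without roles in the submitters' processing notes. No aligner, counting program, annotation release or strand setting is given in the sources used here. Whether each library is 1 animal is not stated either, so p-values reflect only the spread between libraries, which may be technical. Read counts per gene are whole numbers as the authors deposited them. The deposited TPM values served for levels between genes, ratios and an alternative test. A log2 fold change is also deposited and was not used. Of the deposited p-value and false discovery rate only the false discovery rate is printed.

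Counts were tested in R 4.3.3 by edgeR 4.0.16 (glmQLFit and glmQLFTest), with TMM factors, the default filter by group and Benjamini-Hochberg adjustment over all genes tested. Any adjusted p is from edgeR unless DESeq2 1.42.0 is named. Log2 fold changes are KO minus WT, with an approximate SE from the F statistic, and levels are mean ± SD over libraries. limma 3.58.1 gave the voom and TPM alternatives. Scripts were tested on simulated data. Depth was 15786214 to 22932125 counts per library, and floors and the interval of the Il36g ratio cover only counting error. No library pair agreed within sampling noise (chi-square per degree of freedom 44.8 to 203 between replicates). Positions on GRCm38 come from GENCODE M21, with identifiers matched for 21806 of 21899 genes, and promoter windows from RefSeq on GRCm38.p6.

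The genes described and all lists were chosen with earlier results of these data known. Named were all 10 genes and Adamts4, in each list the 4 tested genes with the smallest p and every called gene, and the 5 genes most correlated with Il1b and with Il33. Il18r1 was named besides, after its values were seen, as a member of the receptor cluster. Single markers of the cell type lists were also named after their values were seen. The 22 alternatives were other scaling factors, DESeq2, limma-voom, other count filters, the replicate number as a block, each library left out, an adjusted p below 0.1, limma on log2(TPM + 1) and log2(TPM + 0.1) and, added after the data were seen, DESeq2 with each library left out.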

Additional observations from a re-analysis of the deposited data

How the results depend on the processing

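Every log2 fold change of the 9 tested IL-1 family genes kept its sign in the alternatives run (198 of 198 values). The number of calls did not hold. Over all genes, the 22 lower and 1 higher became 9 and 0 with median-ratio factors, 434 and 108 in DESeq2, 66 and 3 without a count filter, 114 and 20 at an adjusted p below 0.1, 66 and 2 with limma on log2(TPM + 1) and 44 and 3 on log2(TPM + 0.1). Upper-quartile factors gave 38 lower, and limma-voom gave 2 higher. Leaving out 1 library gave 1 to 29 lower and 0 to 2 higher in edgeR, and in DESeq2 763 lower and 228 higher without KO 1, 286 and 112 without KO 2, 369 and 111 without KO 3, 268 and 55 without WT 1, 232 and 48 without WT 2, and 274 and 110 without WT 3. Of the IL-1 family genes 0 were called in edgeR, 7 in DESeq2 and 1 (Il1a) at an adjusted p below 0.1. With 1 library left out, 0 were called in every edgeR fit, and in DESeq2 7 without KO 1, 4 without KO 2 or KO 3, 6 without WT 1, 5 without WT 2 and 3 without WT 3. The cause of these shifts was not tested.

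With the replicate number as a block, edgeR called 78 genes lower and 3 higher, and 3 of the IL-1 family genes (Il1a, Il1b and Il1rl1, adjusted p = 0.0394, 0.0320 and 0.0384). The labels do not say whether equal numbers mark paired samples. Deviations of same-numbered libraries from their group means had correlations of -0.481, -0.182 and -0.496. These cannot decide it, because the deviations of 3 libraries from their own mean are tied to each other.

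With 3 libraries a group and a biological coefficient of variation of 29.0%, intervals of the log2 fold changes were wide, and depth limits Il36g and Il1a most. Among WT libraries 1 sample carried much of the mean of Il1rl1 (WT 1) and of Il33 (WT 3).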

Other observations

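The mean transcript length behind the deposited values, computed from count and TPM, varied between libraries for other IL-1 family genes as well. For Il1rn, whose annotated transcripts run from 321 to 2554 bases, it was 1523, 1173 and 1378 bases in KO and 1435, 1173 and 1240 bases in WT. For Il33 it was 2265, 2493 and 2537 bases in KO and 2538, 2538 and 2537 bases in WT. For Il1r2 it was 1419, 1337 and 1310 bases in KO and 1419 bases in each WT library. For Il1rap it was 4034, 4147 and 4353 bases in KO and 4488, 4289 and 4266 bases in WT. Il1b, at 1356 bases in all 6 libraries, and Il18, at 863 to 865 bases, showed no such variation. A TPM value of Il1rn, Il33, Il1r2 or Il1rap therefore depends on these lengths, which a count does not.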
